A study of Homo sapiens with 6 samples.

Results

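The regions described here are 1179 islands of H3K4me3 that lay deep inside protein-coding genes and were called in both conditions of the study. An island is a stretch of the genome that the authors' peak caller listed as enriched. Members were islands of the Vc- list on chromosomes 1 to 22 that overlapped an island of the Vc+ list by at least 1 bp, with a deposited score of at least 20 in both lists. They also had to lie inside a protein-coding gene and more than 10 kb from both ends of every protein-coding gene. The whole Vc- list held 22431 islands, of which 21583 were on chromosomes 1 to 22. Of those, 15457 were shared with both scores at least 20, and the members were 7.63% of these shared islands. Members were thus chosen by their H3K4me3 score, their overlap and their position in the gene. These values, with the island widths that go with the score, are given below as description.

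The study made ChIP-seq libraries of H3K4me3 and H3K27me3 from endothelial cells that had been differentiated from H1, an established human embryonic stem cell line. All samples are labelled GATA2+, after a zinc finger factor needed for blood stem cells and vessels. Differentiation was without Vc (labelled Vc-) or with it (Vc+). The series title speaks of vitamin C and of KDM6, the H3K27me3 demethylases. The groups used were Vc- H3K4me3, Vc+ H3K4me3, Vc- H3K27me3 and Vc+ H3K27me3, with 1 library each. The input samples of both conditions were not analysed here. Age does not apply to a cell line, and nothing in the labels says how many cultures were pooled. All 4 file names contradict the labels on the condition, so Vc- and Vc+ mean the libraries so labelled, and a reader who trusts the file names should swap them. The series design text speaks of GATA2/eGFP positive and negative cells, and the protocol names antibodies to H3K27me3 alone, while the antibody labels name both marks. With 1 library per mark and condition no replicates could be compared and no test was made. Read depth is unknown from these lists. Intervals in brackets are exact Clopper-Pearson intervals at 95% and cover counting error only.

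H3K4me3 is the trimethylated form of lysine 4 of histone H3 and marks the nucleosomes around transcription start sites that are active or poised. Many human genes start transcription from more than one place, and an internal promoter makes a shorter transcript that can encode a protein lacking its first domains. Promoters rich in the dinucleotide CG are the usual sites of H3K4me3, because proteins with a CXXC zinc finger bring the methyltransferases to unmethylated CG. H3K27me3 is laid down by Polycomb repressive complex 2, and its presence with H3K4me3 over one region is called bivalency, known best from developmental regulators in stem cells. RUNX1, which drives the passage from endothelium to blood, is a textbook case of paired promoters, a distal P1 and an internal P2.

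To show what lies under these islands, 6 stretches of 250 bases are printed, each ending at the base before a listed transcription start. They were read from a RefSeq table of start sites (GRCh38.p14), run 5′ to 3′ along the gene, and have every CG in capitals. RUNX1 and MEF2C stand for the CG-dense starts that made up most of the members with a listed start, LIN28B and ERG for the wide islands over CG-poor starts. For ERG and MEF2C another deep start of the same gene, but in no H3K4me3 island of either list, is given for comparison. These genes were chosen for printing after their values were seen.
RUNX1, start inside a deep island (chr21:34888700-34888949, minus strand): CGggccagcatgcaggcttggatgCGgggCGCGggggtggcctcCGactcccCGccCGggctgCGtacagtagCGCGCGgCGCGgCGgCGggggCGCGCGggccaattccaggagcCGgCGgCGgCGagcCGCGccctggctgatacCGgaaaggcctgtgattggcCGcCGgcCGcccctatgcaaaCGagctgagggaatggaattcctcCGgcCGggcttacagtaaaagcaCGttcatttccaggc
LIN28B, start inside a deep island (chr6:104956857-104957106, plus strand): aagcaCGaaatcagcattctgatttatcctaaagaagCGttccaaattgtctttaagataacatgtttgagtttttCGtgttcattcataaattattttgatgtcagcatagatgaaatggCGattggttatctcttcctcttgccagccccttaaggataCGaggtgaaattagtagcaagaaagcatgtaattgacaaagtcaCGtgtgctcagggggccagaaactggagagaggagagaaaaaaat
ERG, start inside a deep island (chr21:38498478-38498727, minus strand): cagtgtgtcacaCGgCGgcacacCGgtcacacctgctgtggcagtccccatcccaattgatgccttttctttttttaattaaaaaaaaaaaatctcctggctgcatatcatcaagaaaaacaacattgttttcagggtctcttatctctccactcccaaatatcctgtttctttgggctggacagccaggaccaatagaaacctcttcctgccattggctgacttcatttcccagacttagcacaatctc
ERG, start outside H3K4me3 islands (chr21:38584946-38585195, minus strand): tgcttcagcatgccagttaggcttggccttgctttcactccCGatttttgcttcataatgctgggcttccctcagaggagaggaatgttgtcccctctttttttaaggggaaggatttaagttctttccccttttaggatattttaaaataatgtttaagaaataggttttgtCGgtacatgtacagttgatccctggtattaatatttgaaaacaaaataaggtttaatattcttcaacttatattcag
MEF2C, start inside a deep island (chr5:88883185-88883434, minus strand): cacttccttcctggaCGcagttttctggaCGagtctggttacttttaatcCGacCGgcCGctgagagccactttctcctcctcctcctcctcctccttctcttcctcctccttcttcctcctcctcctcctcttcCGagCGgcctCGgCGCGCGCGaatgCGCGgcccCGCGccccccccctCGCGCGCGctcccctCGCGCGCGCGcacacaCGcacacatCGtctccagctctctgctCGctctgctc
MEF2C, start outside H3K4me3 islands (chr5:88785512-88785761, minus strand): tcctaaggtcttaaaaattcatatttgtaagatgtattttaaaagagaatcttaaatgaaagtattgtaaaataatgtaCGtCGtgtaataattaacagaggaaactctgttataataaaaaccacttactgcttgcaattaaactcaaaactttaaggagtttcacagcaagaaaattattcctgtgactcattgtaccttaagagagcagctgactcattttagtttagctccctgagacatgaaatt

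The RUNX1 stretch held 32 CG dinucleotides and the MEF2C stretch inside an island 28. The MEF2C stretch outside islands held 2. The LIN28B stretch held 6 CG, the ERG stretch inside an island 3 and the ERG stretch outside islands 2, so these last ERG sequences do not separate by CG count. Content below is counted over the table's whole window of 300 bases, which adds 50 bases from the start onward. On that scale RUNX1 had 40 CG and a GC content of 72.0%, MEF2C 32 CG, LIN28B 8 and ERG 4.

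Most of the deep islands sat on a listed start of their own host gene. The start table allowed 1005 of the 1179 members to be assessed, and the other 174, of which 59 lay on chromosome 8, were not assessed because no start of their host gene was listed. Of the 1005, 641 held a listed start of the host (63.8%, 60.7 to 66.8), 37 held only a start of a long non-coding RNA (3.68%, 2.61 to 5.04), and 327 held no listed start (32.5%, 29.6 to 35.5). Over all shared islands with both scores at least 20, on the chromosomes of the start table, a protein-coding start was listed in 65.1% of 14875. A long non-coding start was listed in 17% of them, with or without a protein-coding start. Among the 1005 members, 119 with a host start also held a long non-coding start (11.8%), beside the 37 that held one alone. The 17% is therefore not a like comparison for the 3.68%. The count behind the 65.1% took a start of any protein-coding gene and kept islands in or near genes with no listed start. It is therefore not a like comparison for the 63.8%. The share with a host start moved with the score. It was 41.7% of 357 members whose lower score was under 50, 65.3% of 294 from 50 to under 100, 83.5% of 260 from 100 to under 200 and 88.3% of 94 at 200 or more. Members with a host start were wider, with a median of 2.0 kb in the Vc- list, than members with no listed start, at 1.4 kb. Both width and score belong to what chose the members.

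Seen from the side of the genes, only some deep starts carried the mark. There were 2396 listed protein-coding starts inside a gene and more than 10 kb from every gene end. Members held 768 of them (32.1%), islands of both lists at any score 887 (37.0%), and no H3K4me3 island of either list 1416 (59.1%). A further 37 lay in an island of the Vc- list alone and 56 in an island of the Vc+ list alone. For comparison, members covered 2.37 of the 871 Mb of such deep gene territory (0.272%). Deep starts of long non-coding RNAs were held less often, 178 of 1999 in a member (8.90%), and 1761 lay in no island.

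Islands extended further into the transcribed side than upstream. Over the 415 members with a single host start and no non-coding start, the median reach was 0.597 kb upstream and 1.15 kb downstream of the start. Of these, 334 (80.5%, 76.3 to 84.2) reached further downstream. The same reach was not counted for islands at gene ends, so no trait particular to deep islands is claimed. The RUNX1 island reached 3.10 kb upstream and 7.10 kb downstream, and the island in ROBO1, the receptor of SLIT guidance proteins, 0.741 kb and 6.46 kb. LIN28B was among the exceptions, with 4.91 kb upstream and 3.49 kb downstream. Members that lay in a single host gene gave 156 pairs of a host and a long non-coding RNA starting inside the member, and a member with several such RNAs gave several pairs. The RNA ran on the strand opposite to the host in 148 of these pairs (94.9%, 90.1 to 97.8). Strand was not counted for non-coding RNAs starting deep inside genes but outside members, so this share is not shown to be particular to members. In 119 of the pairs the member also held a host start, which lay within 1 kb of the non-coding start in 110 (92.4%). Such pairs stood at LIFR with LIFR-AS1, 0.140 kb apart, and at BAZ2B with BAZ2B-AS1, 0.271 kb apart. Both starts had to lie in the same member, and members with a host start had a median width of 2.0 kb in the Vc- list. That bounds the distance between the starts, so the share within 1 kb is description alone. An end of a non-coding gene lay within 1 kb of 245 members (20.8%, 18.5 to 23.2), against 25.3% of all shared islands and 33.8% of the 1358 shared islands outside genes and more than 10 kb from them.

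CG content, which the rule did not use, differed widely between deep starts with and without an island. The 768 starts in members had a median of 27 CG per 300 bases (quartiles 17 and 36) and a GC content of 68.2%. The 1416 deep starts in no island had a median of 4 CG and a GC content of 46.3%, and all 19724 listed protein-coding starts a median of 21. A window was called CG-rich where GC content was at least 50% and the observed over expected CG at least 0.6. By that measure 586 of the member starts were CG-rich (76.3%, 73.1 to 79.3), against 3.46% (2.57 to 4.55) of deep starts in no island and 59.6% of all protein-coding starts. Put the other way, members held 586 of 713 CG-rich deep starts (82.2%, 79.2 to 84.9) and 182 of the 1683 others (10.8%, 9.37 to 12.4). The difference was present inside single genes. In 156 genes with deep starts of both kinds, the start in the member had more CG in 146, the same in 1 and less in 9, with medians of 28 and 3.5. Non-coding starts split alike, with 76.4% of those in members CG-rich and 3.18% of those in no island. Starts of one gene, and neighbouring starts within an island, share sequence and are not independent.

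**Figure D1:**
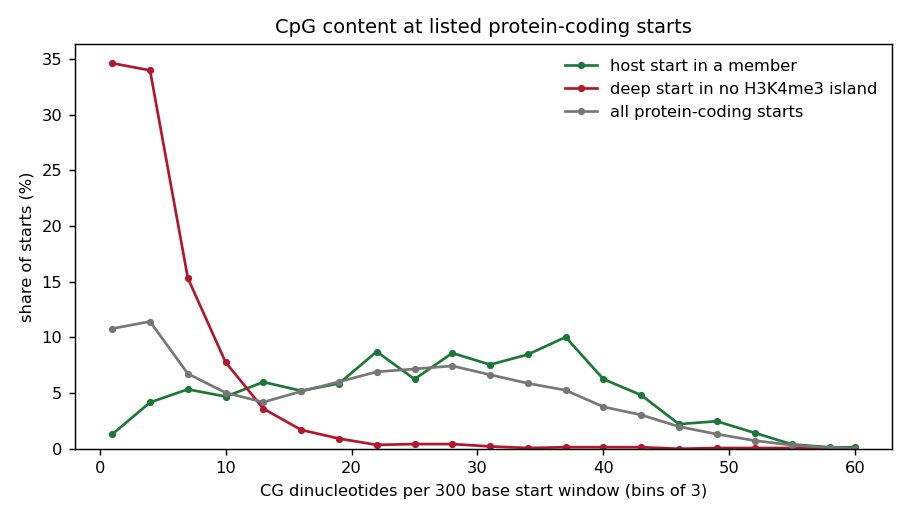
Share of listed protein-coding starts (percent, vertical axis) by the number of CG dinucleotides in the 300 base start window (bins of 3, horizontal axis). The 768 host starts in members (green) spread around a median of 27, the 1416 deep starts in no H3K4me3 island (red) crowd at low counts with a median of 4, and all 19724 protein-coding starts (grey) hold both kinds.

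Short motifs also differed between these sets of starts. Exact strings of 10 motifs were searched on both strands of the 300 base windows. They were the GC box, spelled GGGCGG, the CCAAT box, the TATA box as TATAAA, the GATA motif as AGATAA, the RUNX motif as TGTGGT and the ETS motif as CCGGAAGT. The others were an E-box, spelled CAGCTG, the AP-1 motif as TGACTCA, the cyclic AMP element as TGACGTCA, and the palindromic NRF1 motif. None of these strings contains another of them, though neighbouring matches may overlap. The GC box was present in 68.8% of member starts, 13.3% of deep starts in no island and 56.0% of all 19724 protein-coding starts. Some motifs without CG were less frequent in member starts than in deep starts without an island. These were the TATA box at 5.21% and 19.1%, the GATA motif at 4.43% and 18.1%, the RUNX motif at 9.11% and 19.1%, and the AP-1 motif at 2.34% and 9.46%, with shares of 9.75%, 8.01%, 11.3% and 4.08% over all protein-coding starts. The ETS motif was present in 2.73% and 0.706% (all protein-coding starts 5.31%), the NRF1 motif in 1.69% and 0.212% (1.48%) and the cyclic AMP element in 1.56% and 1.06% (2.29%). The E-box, in 18.8% and 21.5% (18.2%), and the CCAAT box, in 30.2% and 35.0% (34.5%), differed little. The same was counted among starts that were not CG-rich, 182 in members and 1367 in no island. These sets were not matched for CG count or GC content, and the part of base composition in the motif shares was not tested. In them the GC box was more frequent in members, at 30.8% (24.2 to 38.0) and 11.6% (9.91 to 13.4). The GATA motif, at 10.4% (6.40 to 15.8) and 18.7% (16.6 to 20.8), was less frequent in members, with intervals that do not overlap. Intervals overlapped for the RUNX motif, at 15.9% and 19.7%, and just overlapped for the TATA box, at 12.1% and 19.7%, and the AP-1 motif, at 4.40% and 9.66%. The E-box stood at 22.5% and 21.7% and the CCAAT box at 36.3% and 35.3%. The ETS motif, at 0.549% and 0.658%, the cyclic AMP element, at 0.549% and 1.10%, and the NRF1 motif, at 0.549% and 0.0732%, each rested on 1 member start. A match is a string of letters and not a bound site.

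A minority of the members with a host start held only CG-poor starts, meaning here starts that failed the CG-rich measure in either part. Of the members with a host start, 522 held a CG-rich start and 118 did not. The remaining one, in CELF2, an RNA-binding splicing factor, was left out because its start window overlapped another of the gene that was counted in its place. Both sets had a median width of 2.0 kb in the Vc- list, with median lower scores of 104 and 58.8. The CG-poor set included the island of ERG, an ETS factor that maintains endothelial identity, at 4 CG, and that of LIN28B, an RNA-binding protein that blocks maturation of let-7, at 8 CG. It also included islands with a score of 1000 in both lists in JMJD1C (5.2 kb in the Vc- list and 8.8 kb in the Vc+ list), SAMSN1 (4.8 and 5.4 kb) and VGLL4 (3.6 and 6.4 kb). SAMSN1, an adaptor of blood cells, had 0 CG in its window, and VGLL4 had 14. The island of RARA was in the same set with 22 CG, so the set was not low in CG throughout. LIN28B failed the measure on its GC content of 39.0% alone, with an observed over expected CG of 0.716. JMJD1C, SAMSN1 and VGLL4 were named after their values were seen.

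Blood and endothelial regulators gave some of the widest deep islands. Of 23 blood regulators long enough to hold a member (over 20.2 kb, median length 103 kb), 7 did: RUNX1, RUNX2, RUNX3, MECOM, ERG, FLI1 and CBFA2T3. Over all 10553 protein-coding genes of that length the share with a member was 9.61%, with a median length of 58.5 kb. The share rose with length, from 3.04% of genes of 20 to 50 kb to 37.6% of genes over 500 kb, so the lists' lengths are given beside their counts. Of 24 endothelial genes (median length 75.3 kb) 4 held a member, ERG, ETS1, MMRN1 and PTPRB, and of 13 arterial and Notch genes (51.6 kb) 3, MAML2, MAML3 and RBPJ. Of 13 blood cell markers (60.1 kb) 0 did. As to the labelled cell type, H3K4me3 lay at an end of 32 of 37 endothelial genes in the Vc- list (86.5%) and 33 in the Vc+ list (89.2%), and of 10 and 11 of 25 blood cell markers (40.0% and 44.0%). Over all 19122 protein-coding genes the shares were 70.8% and 71.3%, so the endothelial count alone says little about identity. PTPRC, the pan-leukocyte marker CD45, had none in either.

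RUNX1 (NCBI gene 861, chromosome 21, 34787801 to 35049302, minus strand) held the widest member, 10.2 kb in the Vc- list (34881601 to 34891800) and 10.6 kb in the Vc+ list, with a score of 1000 in both. The listed start inside it, at 34888699, is the one printed above, and no H3K4me3 island of either list lay within 1 kb of the gene's 5′ end. H3K27me3 covered 6.4 kb of the island in the Vc- list and 6.8 kb in the Vc+ list. In both lists it left the start itself free. The flanking H3K27me3 islands ran from 34882601 to 34886600 and from 34889401 to 34894400 in the Vc- list, and from 34884001 to 34888000 and from 34889001 to 34897000 in the Vc+ list.

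Its paralogues differed in how much H3K27me3 they carried. The deep island of RUNX3 (3.8 kb in the Vc- list, 3.6 kb in the Vc+ list, scores 65.6 and 81.9) was wholly covered by H3K27me3 in both lists. That of RUNX2, the master factor of bone, was 3.0 kb in the Vc- list and 5.0 kb in the Vc+ list, with 1.8 and 3.0 kb of H3K27me3. CBFA2T3, a corepressor of the ETO family, had 2.2 and 3.0 kb, the 2.2 kb of the member being covered in both lists. All 3 starts of the RUNX family were CG-rich, with 40, 39 and 38 CG per 300 bases for RUNX1, RUNX2 and RUNX3.

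MECOM, which encodes the stem cell factor EVI1, held an island of 8.2 kb with a score of 1000 in the Vc- list. In the Vc+ list the same stretch met several islands that summed to 6.2 kb, the highest scoring 199. H3K27me3 covered 3.6 and 3.8 kb of it. ERG showed the reverse layout. A member of 9.0 kb and another of 2.0 kb in the Vc- list met a single island of 12 kb in the Vc+ list, the widest match of any member. No H3K27me3 touched them, while the 5′ end of ERG, 163 kb upstream, carried H3K27me3 islands of 8.4 kb in the Vc- list and 8.6 kb in the Vc+ list over H3K4me3 islands of 2.0 and 1.8 kb. ETS1, another endothelial ETS factor, had a member of 6.6 kb in the Vc- list and 7.0 kb in the Vc+ list with no H3K27me3, and FLI1 one of 1.4 and 4.6 kb. MMRN1, the multimerin of platelets and lymphatic endothelium, had 4.4 and 3.2 kb, and PTPRB, the phosphatase VE-PTP, 2.2 and 4.2 kb. RBPJ, the DNA-binding partner of Notch, had 4.0 and 4.6 kb over CG-rich starts.

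**Figure D2:**
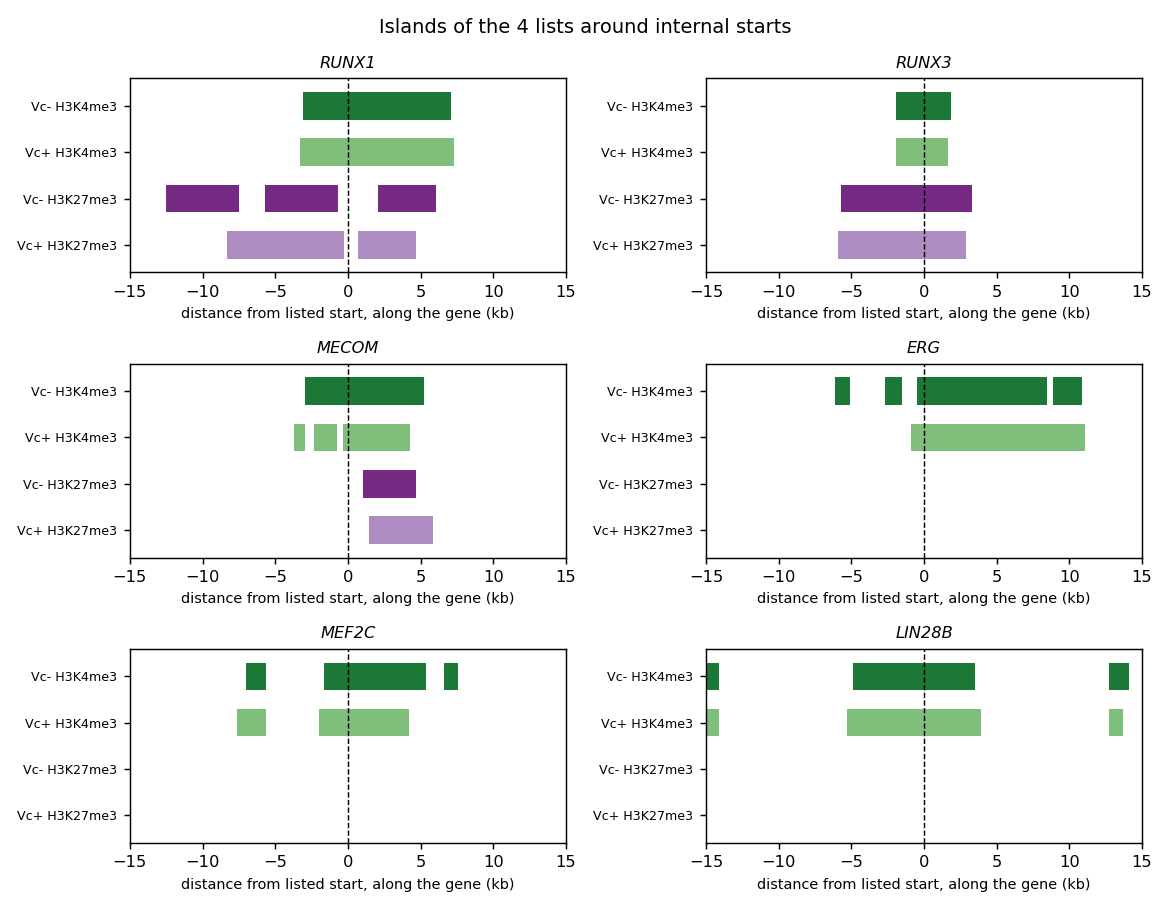
Islands of the 4 lists (rows, Vc- and Vc+ H3K4me3 in green, Vc- and Vc+ H3K27me3 in purple) around 1 listed internal start of 6 genes, by distance from that start along the gene in kb (dashed line at 0). H3K27me3 flanks the RUNX1 start, covers the RUNX3 island and lies within MECOM, and is missing at ERG, MEF2C and LIN28B, where the ERG island of the Vc+ list is a single 12 kb block.

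Transcription factors and long signalling genes known for alternative promoters held members more often than other listed genes, and were also the longest. Of 47 such transcription factors (median length 229 kb) 23 held a member (48.9%, 34.1 to 63.9). Of 52 long signalling, cytoskeletal and adhesion genes (481 kb) 32 did (61.5%, 47.0 to 74.7). Over all protein-coding genes the share was 23.2% at 200 to 500 kb and 37.6% over 500 kb, and the lists were not matched to these bands. The 23 include ERG, FLI1, MECOM, RUNX1, RUNX2 and RUNX3, already counted among the blood regulators. These lists were chosen for internal starts, and the counts are no independent evidence of them. MEF2C, a MADS-box factor of vessels and muscle, held a 7.0 kb island in the Vc- list and 6.2 kb in the Vc+ list. NFIB, a nuclear factor I protein, held 3 members. Its widest was 8.0 and 8.2 kb with no H3K27me3, and another, of 5.4 kb in both lists at the start of NFIB-AS1, had 4.6 and 5.4 kb of H3K27me3. TCF4, an E-protein, had 7.2 and 7.0 kb, RARA, the retinoic acid receptor, 4.8 and 6.4 kb, and SOX6 4.4 and 4.8 kb with H3K27me3 over 2.0 and 4.4 kb. GNAS, the imprinted locus of the stimulatory G protein, had 7.6 and 7.0 kb. SPTBN1, a spectrin, had 6.6 and 7.0 kb, and UBE2D3, a ubiquitin-conjugating enzyme, 6.6 and 7.8 kb. LIFR, the receptor of leukaemia inhibitory factor, had 9.0 and 8.2 kb.

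Of 29 TGF-beta, BMP and WNT genes (median length 114 kb) 2 held members (6.90%, 0.846 to 22.8). These were LRP5, a WNT coreceptor, and WNT5A, a WNT ligand. Those of WNT5A were 6.0 kb in the Vc- list and 4.2 kb in the Vc+ list, and 2.8 and 3.2 kb. Of 32 chromatin modifiers (113 kb) 7 held members (21.9%, 9.28 to 40.0). The intervals of both lists hold the 9.61% of all genes over 20.2 kb and the 14.4% of genes of 100 to 200 kb. KDM4C, a demethylase of H3K9, had 3.0 and 2.6 kb, AEBP2, a cofactor of Polycomb complex 2, 3.0 kb in both, and DNMT3A, a DNA methyltransferase, 3.2 and 3.6 kb. KDM2A, KDM2B, TET1 and TET3, proteins with a CXXC finger, held the rest, between 1.0 and 2.8 kb wide in the Vc- list.

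Genes with a deep island often lacked H3K4me3 at their annotated 5′ end. Of the 858 hosts with a listed strand, 304 had no H3K4me3 island of either list within 1 kb of it (35.4%, 32.2 to 38.7). Over all 8553 such genes over 20.2 kb the share was 20%, and over the 7695 without a member 18.3% (17.4 to 19.1). Among hosts whose island held a listed start of the gene it was 248 of 610 (40.7%, 36.7 to 44.7), and among the other hosts 56 of 248 (22.6%, 17.5 to 28.3). The gap was present in every length band examined, from 31.5% of hosts and 20.9% of genes without a member at 20 to 50 kb, to 36.4% and 11.8% over 500 kb. Counting either end, without regard to strand, 681 of 1014 hosts had H3K4me3 (67.2%, 64.2 to 70.0), against 80.2% of genes over 20.2 kb. H3K27me3 of either list lay at the 5′ end of 183 of the 858 hosts (21.3%, 18.6 to 24.2) and of 16.7% (15.8 to 17.5) of genes without a member.

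Among the hosts with their 5′ end in no H3K4me3 island were RUNX1, RUNX3, MEF2C, LIN28B, LIFR, NFIB, WNT5A, RBPJ, KDM4C and AEBP2. JCAD, an endothelial junction protein, had its island centred 58.0 kb from the 5′ end, KLF12, a Krüppel-like repressor, 171 kb, and TAB2, an adaptor of the kinase TAK1, 100 kb. LIN28B lay nearer, at 19.4 kb. It also had an H3K4me3 island of 3.0 kb in the Vc- list and 3.2 kb in the Vc+ list that began 2.98 and 2.78 kb from the 5′ end, outside the 1 kb window. The nearest island to the 5′ end of KDM4C lay 3.86 kb away. Of the 304 hosts, 11 had an H3K4me3 island within 2 kb of the 5′ end, 26 within 5 kb and 51 within 10 kb. KLF12 and TAB2 were named after their values were seen. Which start these cells transcribed was not measured.

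**Figure D3:**
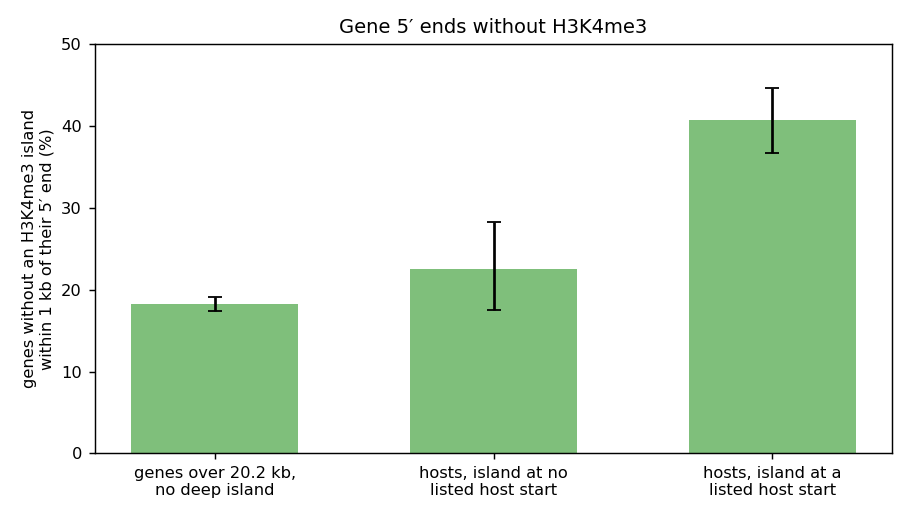
Share of genes over 20.2 kb with no H3K4me3 island of either list within 1 kb of their 5′ end (percent, vertical axis), for genes without a deep island, hosts whose island held no listed host start and hosts whose island held one. Bars show the share and lines the exact 95% interval, and the last bar, at 40.7%, stands above the others at 18.3% and 22.6%.

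H3K27me3 overlapped a slightly larger share of members than of all shared islands, most of which lay at gene ends. Its call was mostly the same in both conditions. It touched 279 members in the Vc- list (23.7%, 21.3 to 26.2), against 20.5% of all shared islands, and 299 in the Vc+ list (25.4%, 22.9 to 27.9), against 22.2%. It touched 251 in both lists (21.3%, background 19%), 28 in the Vc- list alone (2.37%, 1.58 to 3.41, background 1.44%) and 48 in the Vc+ list alone (4.07%, 3.02 to 5.36, background 3.21%). It touched 852 in neither. Shares at the 11245 shared islands within 1 kb of a gene end were 18.0% and 19.6%, and at those outside genes 27.3% and 30.2%. At the 1675 shared islands in none of these places they were 29.1% (26.9 to 31.3) and 31.2% (29.0 to 33.4). The shares of members were thus above those at gene ends and below those of the other islands away from gene ends. Of the 251 members with the mark in both lists, 177 were wholly covered in the Vc- list and 206 in the Vc+ list. Members with a host start, 22.5% of 641, and without any listed start, 19.9% of 327, carried it in both lists at shares whose intervals overlap. Of members with a CG-rich host start 24.5% (20.9 to 28.4) carried it in both lists, and of those with CG-poor ones alone 13.6% (7.95 to 21.1), intervals that barely overlap.

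These shares moved with the H3K4me3 score. In both lists, H3K27me3 touched 28.6% (24.4 to 33.1) of members with a lower score under 50, 23.8% from 50 to under 100, 12.2% from 100 to under 200 and 8.65% (4.03 to 15.8) at 200 or more. At gene ends the fall was steeper, from 41.6% (39.3 to 44.0) through 22.1% and 8.31% to 4.66% (3.73 to 5.76). Deep islands thus had the lower share in the weakest band, with intervals that do not overlap. In the 3 stronger bands the share was lower at gene ends, but the intervals overlap. Shared islands outside genes had 28.4% (25.2 to 31.8) in the weakest band, so the lower share there is not particular to deep islands. Their shares in the stronger bands were 22.5%, 20.2% and 26.3% (13.4 to 43.1), without a steady fall. The remaining shared islands fell from 38.3% (34.8 to 41.8) to 3.13% (0.381 to 10.8). Members scored lower than islands at gene ends, with a median of 83.9 in the Vc- list against 131, so the shares over all scores set islands of different strength side by side.

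**Figure D4:**
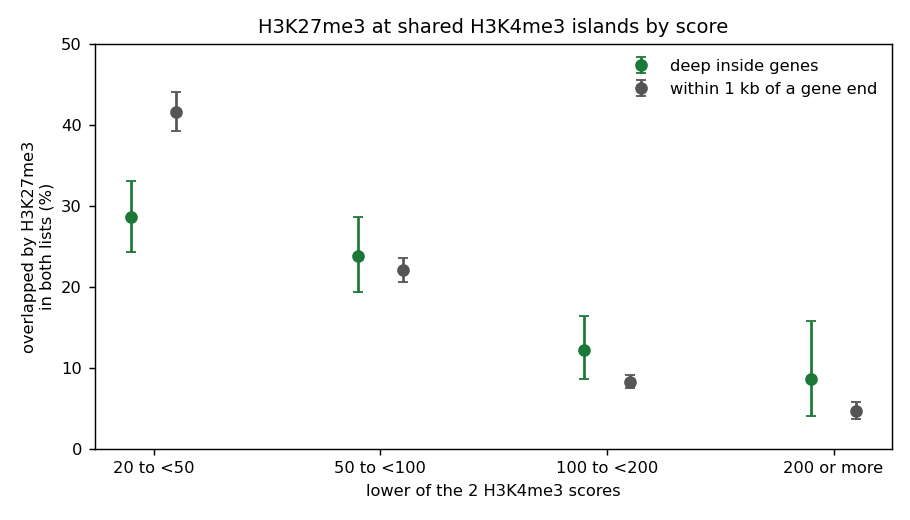
Share of shared H3K4me3 islands overlapped by H3K27me3 in both lists (percent, vertical axis) by the lower of the 2 H3K4me3 scores (horizontal axis), for islands deep inside genes (green) and within 1 kb of a gene end (grey). Lines are exact 95% intervals, and both series fall with score, from 28.6% to 8.65% and from 41.6% to 4.66%.

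The H3K27me3 islands with the highest scores covered members in genes of several kinds. The deep islands of HMX1 and LHX6, homeobox factors of craniofacial and forebrain development, of LMX1B, a homeobox factor of limb and midbrain, and of PTPRN2, a phosphatase of secretory granules, lay in H3K27me3 islands with a score of 1000 in both lists. These H3K4me3 islands were of modest width, 2.0, 1.0, 1.4 and 4.4 kb in the Vc- list, and wholly covered. NR5A2, a nuclear receptor of liver and pancreas, had 4.8 kb wholly covered in both lists, by H3K27me3 islands scoring 298 and 1000. GATA4, the heart and endoderm GATA factor, had a member of 8.2 kb with 1.8 kb covered in the Vc- list and 5.4 kb in the Vc+ list, and a smaller one of 1.2 kb wholly covered. NTN1, the guidance protein netrin 1, had 2.4 kb wholly covered, with H3K27me3 scores of 1000 in the Vc- list and 234 in the Vc+ list. At TBX5, a T-box factor of heart and forelimb, 1.2 kb were covered, with scores of 71.5 and 1000. FAM163A (scores 243 and 141) and ISLR2 (223 and 257) had members of 2.0 and 2.4 kb.

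Some members had H3K27me3 called in 1 condition only. The median H3K27me3 score was 9.85 at the 28 members of the Vc- list alone and 11.6 at the 48 of the Vc+ list alone. The highest was 28.8 in the Vc- set and 280 in the Vc+ set. The nearest H3K27me3 island of the other list was at a median of 58.3 and 76.3 kb, and over 10 kb away for 23 and 38 of them. PRKCH, a protein kinase C, had 2.4 kb in the Vc+ list alone, LRP5 2.8 kb and PDE4D, a cyclic AMP phosphodiesterase, 1.8 kb. In the Vc- list alone it covered 2.2 kb of a member in NCKAP5 and 1.4 kb of one in RPS6KA2, a ribosomal S6 kinase. Scores of different libraries are not on one scale, so no difference between the conditions is read from them.

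The H3K4me3 islands themselves had similar widths in both lists. Members ran from 0.4 to 10.2 kb in the Vc- list with a median of 1.8 kb, and matched islands of the Vc+ list had a median of 2.0 kb and reached 12 kb. Medians were 2.2 and 2.4 kb at gene ends and 1.4 and 1.6 kb outside genes. Of 1108 members that matched 1 island each way, 610 were wider in the Vc+ list (55.1%, background 54.9%), 295 wider in the Vc- list (26.6%, background 27.4%) and 203 equal. The lean to the Vc+ list was thus that of shared islands in general. Widths agreed within 400 bp for 772 (69.7%), and 27 differed by more than 2-fold. Among these were a member in PRMT8, an arginine methyltransferase of neurons, with 0.8 kb in the Vc- list and 3.0 kb in the Vc+ list, and one in CAMTA1, a calmodulin-binding factor, with 1.4 and 0.6 kb. Both had scores under 50.

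**Figure D5:**
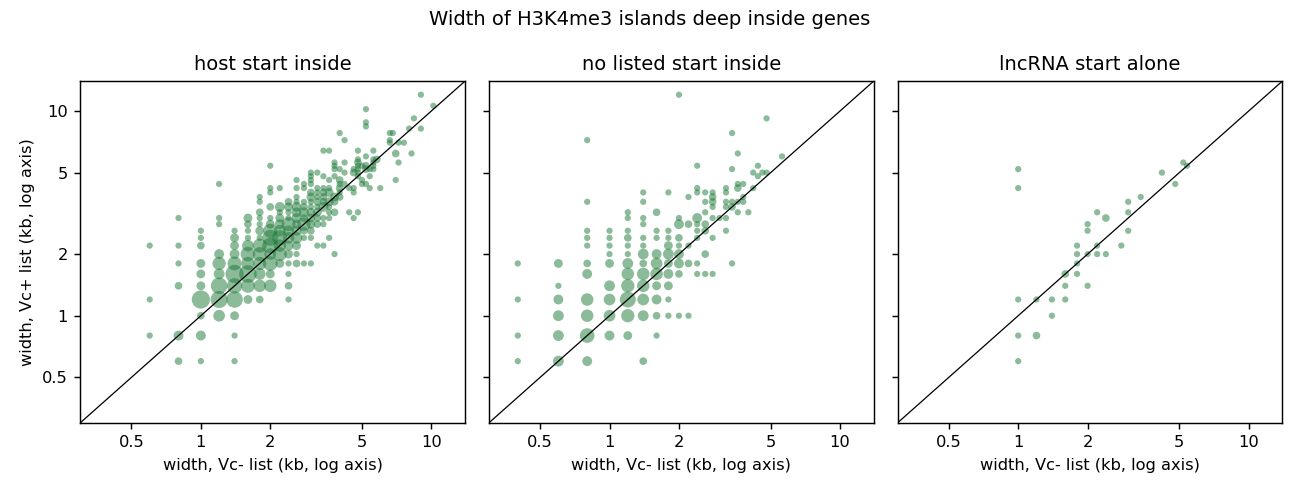
Width of each member in the Vc- list (kb, log axis, horizontal) and of its matched Vc+ islands (kb, log axis, vertical), by whether a host start, no listed start or only a long non-coding start lay inside. Larger points hold more members, the line marks equal width, and points crowd along it around medians of 1.8 and 2.0 kb.

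Most hosts held a single member. Of 1014 hosts, 875 had 1, 104 had 2, 29 had 3, 5 had 4 and 1 had 5, and 16 members lay inside more than 1 gene. RAI1, a chromatin-associated factor, had the 5, of which 2 held only a non-coding start and 3 no listed start. The genes with 4 were CAMTA1, DAB2IP, LTBP4, MACF1 and NOL4L. DAB2IP, a RAS GTPase-activating protein, showed all 3 classes, with a host start in the island of 3.4 kb, a non-coding start in that of 1.4 kb and no listed start in those of 2.8 and 1.6 kb. The 4 of LTBP4, a latent TGF-beta binding protein, held no listed start. MACF1, a linker of actin and microtubules, had 2 with a host start, and 2 of its Vc- members met a single 7.8 kb island of the Vc+ list. Hosts had a median length of 130 kb. Members with a host start lay at a median of 40.6% along the gene from its 5′ end and those with no listed start at 47.3%, with 63.1% (59.1 to 66.8) and 54.6% (49.0 to 60.1) nearer the 5′ end than the 3′ end.

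Among the strongest members with no listed start, SOX5, an SRY-box factor, had 5.6 kb in the Vc- list and 6.0 kb in the Vc+ list, and GSE1, a corepressor protein, 4.4 and 5.4 kb. SOX6, DYSF, the membrane repair protein dysferlin (4.6 and 5.0 kb), and RBMS1, an RNA-binding protein (3.8 and 4.4 kb), were of the same class. GSE1, DYSF and RBMS1 were named after their values were seen. The start table is not complete, so the class says only that no start in that table fell inside.

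Just below the score of 20 lay islands in SNX31 and PAX7, at 19.96, and ZBBX, at 19.91, and just above it those in MEF2C and ETV5, at 20.1, and TRAPPC9, at 20.2. Just short of 10 kb from a gene end lay islands in CIC, KIFAP3 and EIF3H, at 9.996, 9.984 and 9.974 kb, and just beyond it those in LMF1, VDAC1 and ERLIN2, at 10.013, 10.013 and 10.022 kb.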

How the data were processed

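Island lists of 4 libraries (H3K4me3 and H3K27me3, each in cells labelled Vc- and Vc+) were used, grouped by the sample labels. The submitters' processing notes list Bowtie2, SICER and deepTools and the builds hg38 and GRCh38, and versions and settings are not given in the sources used here. The score that the authors deposited for each island ran from just above 2.0 to 309 and then jumped to 1000, which looks like −log10 of a false discovery rate although no source states it. It depends on depth and width and was used to filter the islands of each list. The lower of a member's H3K4me3 scores also ranked and banded the members, although scores of different libraries are not on one scale. All widths were multiples of 200 bp. Deposited positions are zero-based with inclusive ends and are printed counted from 1. The lists held neither read counts nor depth.

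Genes came from a RefSeq table of GRCh38.p14 and listed starts from the RefSeq start windows of the same assembly, which hold no chromosome 8. Overlap was by at least 1 bp. Overlapping start windows of a gene were counted once in the CG, motif and deep start counts. Members and gene lists were chosen with earlier results of these data known. Named genes were those of the lists, the 15 members with the highest lower score, the 8 widest, up to 12 by H3K27me3 score, the 8 hosts with the most members, up to 12 at a non-coding gene end, the 3 nearest each side of a threshold, RUNX1 and GATA2 (which held no member). One member that this rule names is not reported here. Start classes, CG content, motifs, 5′ ends by strand, and the breakdowns by score and length were added after the data were seen, some after earlier results of the same files. For these a single definition of CG-rich was used, and every motif searched is reported. For a match to several islands of the Vc+ list, widths are summed.

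Alternatives were a score of at least 50 or 10, 20 or 5 kb from gene ends, a reciprocal overlap, islands of the Vc+ list and other overlap rules. Interval code was checked against bedtools 2.31.1 (0 of 21583 islands differed) and tested on simulated data, where 200 of 200 planted members were recovered and 0 of 400 others called. Python 3.11.15, pandas 2.3.3 and scipy 1.17.1 were used.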

Additional observations from a re-analysis of the deposited data

How the results depend on the processing

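Over 7 results and 49 alternative values, 37 stayed within the interval or 1.5 times the value given, and 12 moved. With a score of at least 50 there were 745 members, with a median width of 2.2 kb, H3K27me3 at 18.5% in the Vc- list and 20.7% in the Vc+ list, a non-coding gene end at 25.1% and a host start in 75.9%. With a score of at least 10 the median width was 1.6 kb, a non-coding gene end lay at 18.4% and a host start in 54.3%. Islands of the Vc+ list, also the reading in which the file names are right, had a median width of 2.0 kb. H3K27me3 over 50% or more of the member gave 20.4% in the Vc- list, and a non-coding end inside the member 17.7%. The share of members with a host start thus moved at both score minima. The share with H3K27me3 moved at a minimum of 50 alone. At a minimum of 10 it was 22.4% in the Vc- list and 23.6% in the Vc+ list, within the main intervals. The share of hosts with H3K4me3 at a gene end stayed between 65.5% and 68.7% under the alternatives run.

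No paired analysis was possible because each mark and condition had 1 library, and no library was left out. Repeat cultures were not analysed, depth is unknown, and scores of different libraries are not on one scale. Neither transcription nor exon position was measured, and 174 members were not placed against a listed start.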

Other observations

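Chromosome X lies outside the rule and gave 34 islands that met its other terms, of 547 shared there with both scores at least 20 (6.22%, exact interval 4.34 to 8.58). H3K27me3 of either list touched 6 of them. BCOR, a corepressor of BCL6 and a subunit of a variant Polycomb complex, held 6 of the 34. The widest in BCOR were 6.0 kb in the Vc- list and 5.6 kb in the Vc+ list, and 5.6 and 5.8 kb, neither with H3K27me3. MSN, which encodes moesin, a linker of membrane and actin, had 2.8 and 3.2 kb.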
